A study of Mus musculus with 2 samples.

Results

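ILC2s (group 2 innate lymphoid cells) sit in tissues and make type 2 cytokines without an antigen receptor. Type 2 cytokine transcript-high ILC2s were the ILC2s of fetal mouse lung that held at least 5 UMIs (unique molecular identifiers, each counted as 1 RNA molecule) of Il4, Il5, Il13 and Csf2 together. They were taken in steps from the raw UMI counts. An ILC2 was a barcode with at least 200 genes, at most 5% mitochondrial UMIs and a single hashtag, a Gata3 UMI, at least 2 UMIs of Il2ra, Il2rb and Tnfrsf18 together, at most 2 of Tyrobp and at most 1 over 8 cell cycle genes. By this rule 320 of 1237 ILC2s were cytokine-high (25.9%), out of 8598 singlets and 10648 barcodes. The 367 ILC2s with none of the 4 transcripts (cytokine-zero) served as the comparison, and 550 lay between. The 4 cytokines and the 13 genes of the gate chose the cells, so their values are a description and none was tested.

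The cells came from lungs of wild-type fetuses on gestation day 18. From day 12 the drinking water of their 9-week-old mothers held either 1.3 µg/ml of the glucocorticoid drug dexamethasone (DEX) or phosphate-buffered saline (PBS). Lungs were pooled by litter, 8 and 9 fetuses in DEX-1 and DEX-2 and 5 and 8 in PBS-1 and PBS-2, and live CD45+ lineage-negative ST2+ cells were sorted. Each litter carried its own hashtag and all were read in the same 5′ single-cell libraries, in which 0 barcodes were listed more than once. The litter was therefore the replicate, with 2 per treatment. Values of the 4 litters are given throughout in the order DEX-1, DEX-2, PBS-1, PBS-2. UMIs of each class summed to 481706 to 989720 per litter, so that 3 UMIs were worth 3.19 to 6.46 CPM, the unit used below (UMIs scaled to a common library total).

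In ILC2s, alarmins from damaged epithelium, of which IL-33 acts through ST2 (the protein of Il1rl1), switch on NF-kB and AP-1, and leukotrienes and other lipid or neural signals raise calcium and with it NFAT. The transcription factor GATA3 keeps the cytokine genes open in this lineage. IL-13 drives mucus and airway responses, IL-5 calls eosinophils, IL-4 acts on B and T cells, and GM-CSF, the product of Csf2, feeds macrophages, in the fetal lung those that become alveolar macrophages. All 4 genes lie on chromosome 11 (mm10, which is GRCm38). In the GENCODE M21 annotation Il4 spans 53602982 to 53618669, Il13 53631324 to 53634702, Il5 53720794 to 53725106 and Csf2 54247271 to 54249667.

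The 250 bases before the RefSeq start site of each gene (GRCm38.p6, on the gene's own strand) are shown because these transcripts define the cells and were chosen together. Capitals mark each match to the NFAT core (TGGAAA) or the GATA motif (AGATAA), on either strand. The windows are chr11:53618666-53618915 for Il4, chr11:53634703-53634952 for Il13, chr11:53720544-53720793 for Il5 and chr11:54249900-54250149 for Csf2, all on the minus strand except that of Il5. The table holds 2 windows for Il4, of which the nearer to the GENCODE start was taken, and its Csf2 start lies 232 bases upstream of the GENCODE start.
Il4: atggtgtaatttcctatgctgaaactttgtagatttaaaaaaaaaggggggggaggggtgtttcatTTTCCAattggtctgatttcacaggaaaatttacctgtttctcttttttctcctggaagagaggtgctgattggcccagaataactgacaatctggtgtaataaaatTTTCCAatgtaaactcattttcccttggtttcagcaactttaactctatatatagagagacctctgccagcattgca
Il13: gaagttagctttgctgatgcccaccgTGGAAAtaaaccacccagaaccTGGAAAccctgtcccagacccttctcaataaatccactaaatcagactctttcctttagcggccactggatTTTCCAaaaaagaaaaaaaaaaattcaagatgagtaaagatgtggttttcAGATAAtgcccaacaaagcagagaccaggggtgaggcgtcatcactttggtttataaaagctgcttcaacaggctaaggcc
Il5: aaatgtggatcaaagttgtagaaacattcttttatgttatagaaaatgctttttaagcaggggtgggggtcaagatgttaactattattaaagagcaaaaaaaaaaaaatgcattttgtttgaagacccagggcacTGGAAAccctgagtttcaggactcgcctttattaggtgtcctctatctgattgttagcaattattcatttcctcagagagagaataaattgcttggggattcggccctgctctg
Csf2: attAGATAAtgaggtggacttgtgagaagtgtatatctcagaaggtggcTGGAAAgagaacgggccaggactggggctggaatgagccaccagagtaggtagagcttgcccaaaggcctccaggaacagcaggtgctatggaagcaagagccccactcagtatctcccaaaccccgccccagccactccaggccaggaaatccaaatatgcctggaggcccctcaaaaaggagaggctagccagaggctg

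The NFAT core was found in all 4 windows, 3 times in Il13, in 2 places in Il4 and in 1 place each in Il5 and Csf2. It occurs in 18.6% of the 32851 promoter windows of the table. The GATA motif was found in Il13 and Csf2 and occurs in 9.99% of all windows. The AP-1 motif (TGANTCA) was in none of the 4 and in 6.75% of all windows. No match overlapped another, and a match of letters describes the window only.

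The cytokine-high cells did not make the 4 transcripts in equal measure. Of their 4680 cytokine UMIs, Csf2 took 45.6%, Il13 34.4%, Il4 13.1% and Il5 6.92%. An Il13 UMI was found in 70.9% of the cells, an Il4 UMI in 67.2%, a Csf2 UMI in 61.6% and an Il5 UMI in 17.8%. Csf2 was thus found in fewer cells than Il13 but in more copies. A single cytokine made up over 50% of the sum in most cells, Csf2 in 123, Il13 in 112, Il4 in 44 and Il5 in 14, and no cytokine did in the other 27. Only 65 cells held a single kind of transcript, while 155 held 2 kinds, 79 held 3 and 21 held all 4. Csf2-led cells had the higher median sum, 13.0 UMIs against 9.0 in Il13-led and 6.0 in Il4-led cells, and 28.6% of Il13-led cells held any Csf2 against 43.1% of Csf2-led cells with any Il13.

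Il5 was uneven across litters. It measured 38.1, 324, 27.0 and 81.8 CPM in cytokine-high cells. DEX-2 stood apart, with an Il5 UMI in 38.5% of its cytokine-high cells against 10.6 to 11.6% in the other litters, and it held 11 of the 14 Il5-led cells. Csf2 lay at 748, 733, 716 and 933 CPM and Il13 at 636, 566, 683 and 584 CPM. Il4, at 200, 150, 303 and 267 CPM, was lowest in DEX-2. Gata3 was close to equal in both classes, at 456 CPM in cytokine-high and 490 CPM in cytokine-zero cells.

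Depth and RNA of other cells differed between the classes, and their part in the results below was not tested beyond the settings given. Cytokine-high cells were deeper, with a median of 7530 UMIs and 2558.5 genes against 6184 UMIs and 2279 genes in cytokine-zero cells, while the mitochondrial share was 0.794% and 0.795%. Some also held UMIs of other cell types. Minima on marker genes of epithelial, myeloid, mesenchymal, endothelial, red, B and mast cells were passed by 27 cytokine-high cells (8.44%; 7, 10, 3 and 7 by litter) and by 11 cytokine-zero cells (3.0%). The 6 epithelial markers, all detected, summed to 7400 CPM in cytokine-high cells (534 to 10700 across litters) and 2940 CPM in cytokine-zero cells (362 to 9450). The 4 mesenchymal markers, all detected, summed to 71.1 CPM (27.8 to 127) against 5.26 CPM (3.47 to 5.96). Myeloid markers summed to 231 CPM (20.8 to 609, 4 of 7 detected, Mrc1, S100a8 and S100a9 at 0) against 10.1 CPM (1.73 to 22.4, 2 of 7 detected). Nearly all of this was Lyz2, at 229 and 9.71 CPM, which was at 2130 CPM in epithelial cells. Csf1r, Adgre1 and Cd68 were at 0.378, 0.378 and 0.756 CPM in cytokine-high cells. Mast cell UMIs reached 5 in 10 cytokine-high and 0 cytokine-zero cells, although the whole mast cell and basophil list summed to 517 CPM (390 to 724, 9 of 11 detected) against 447 CPM (397 to 492, 8 of 11 detected), with Mcpt8 and Fcer1a at 0 in both. The 8 ILC2 markers outside the gate summed to 4090 CPM in cytokine-high and 3870 CPM in cytokine-zero cells, against 489 CPM in B cells. Erythroid markers went the other way, at 9.09 to 16.6 CPM across litters in cytokine-high and 7.40 to 1290 CPM in cytokine-zero cells, highest in DEX-1, as did B cell markers, at 45.7 against 70.4 CPM, while endothelial markers were at 110 against 71.6 CPM. Results without the cells that passed these minima are given beside the main ones below, a setting added after the data were seen.

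A sum of 5 UMIs was not particular to ILC2s. It was reached by 3.64% of B cells (95% Wilson interval 2.05 to 6.40%, median 4132.5 UMIs) and 2.65% of 1057 epithelial cells (1.84 to 3.8%, median 19493 UMIs). Neither is a clean negative: barcodes gated as B cells summed to 71500 CPM of epithelial markers, and alveolar epithelium is a known source of Csf2, found here in 31.0% of epithelial cells. Il13 was found in 1.89% of epithelial cells and 2.32% of B cells. Mast cells and basophils, known sources of Il4 and Il13, reached it in 34.8% of 3256 cells (33.2 to 36.5%). At the threshold the cells differed little in depth: the 52 ILC2s at a sum of 4 had a median of 7372.5 UMIs and the 43 at 5 had 7257. Lmo4 was 1013 ± 298 CPM at a sum of 4 and 996 ± 194 CPM at 5, and Nr4a2 447 ± 235 and 387 ± 145 CPM (mean ± SD, n = 4 litters).

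The share of cytokine-high cells did not separate the treatments. It was 20.3% (95% Wilson interval 16.3 to 25.0%) and 27.6% (22.7 to 33.0%) of ILC2s in DEX-1 and DEX-2, and 21.8% (17.4 to 26.8%) and 33.4% (28.6 to 38.6%) in PBS-1 and PBS-2. The groups overlapped, with both first litters below both second litters. The means were 23.9 ± 5.13% in DEX and 27.6 ± 8.25% in PBS litters (SD, n = 2 each), a difference of -3.67 percentage points with a two-sided exact permutation p of 0.667, where 2 litters against 2 cannot go below 0.333. With every cell thinned to 3000 UMIs and a sum of at least 2, the shares were 25.0, 29.4, 28.0 and 39.7% in the same order. The difference turned to 2.17 points without PBS-2 and was -0.0389 points without DEX-1, -7.29 without DEX-2 and -9.50 without PBS-1. Without cells of other types it was -4.92 points.

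**Figure D1:**
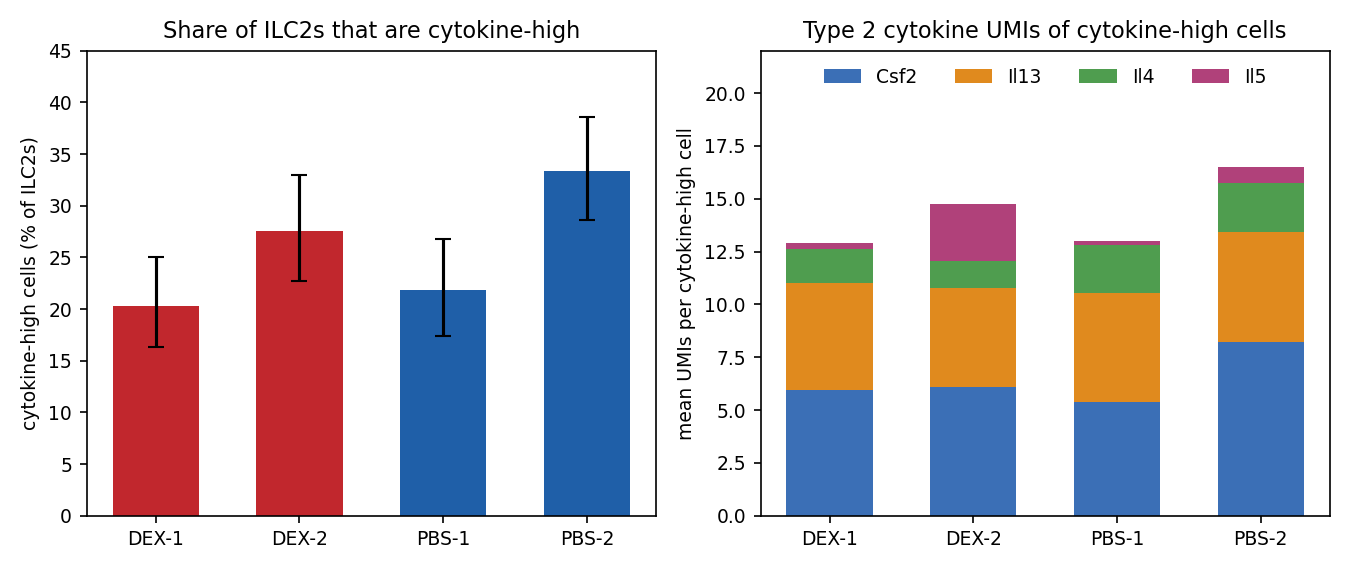
Left, cytokine-high cells as a percent of ILC2s in each litter (DEX red, PBS blue), with 95% Wilson intervals; right, mean UMIs per cytokine-high cell of Csf2, Il13, Il4 and Il5, stacked, by litter. The share lies between 20.3% in DEX-1 and 33.4% in PBS-2, and the Il5 segment is tallest in DEX-2, where Il5 measured 324 CPM.

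The comparison of cytokine-high with cytokine-zero ILC2s asks which other transcripts go with the cytokines inside the same litters. Few were called. In simulated data this fit recovered 23.9% of 1.5-fold, 62.7% of 2-fold and 98.5% of 4-fold changes. It made 125 calls among 6290 genes there, against 11 in the comparison below. Whether these rates hold for the measured data was not tested. Some measured differences above 2-fold were not called, such as Lgals3 at -1.86 ± 0.36 on the log2 scale (edgeR adjusted p 0.0792) and Nkg7 at -1.39 ± 0.26 (0.0748). Differences could therefore be missed, and the number of calls does not count all genes that differ. Nr4a2, a calcium-induced nuclear receptor, rose, while Lmo4, Ifngr1, Il18r1, Rasgrp2 and Ctla2a fell, and the defining ILC2 genes Rora and Il1rl1 were near equal. By edgeR's quasi-likelihood test with the litter as a block, 11 of 6524 genes were called (adjusted p under 0.05; 0.169% of the genes tested), 6 higher (0.0920%) and 5 lower (0.0766%) in cytokine-high cells. The median log2 fold change over all tested genes was 0.0049, and 601 had an unadjusted p under 0.05. Without the cells that held UMIs of other types, 45 of 6033 genes were called (0.746%), 15 higher (0.249%) and 30 lower (0.497%), among them 6 of the 11. Leaving out DEX-1, DEX-2, PBS-1 or PBS-2 gave 26, 6, 22 and 4 calls, DESeq2 gave 13 and zero cells matched on depth gave 27, which held all 11.

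Nr4a2, an orphan nuclear receptor switched on by calcium and cAMP signals in lymphocytes (ENSMUSG00000026826, chromosome 2, 57106830 to 57124003), was, with Malat1, one of the called rises found in most cells. It measured 554, 413, 833 and 767 CPM in cytokine-high and 311, 344, 496 and 539 CPM in cytokine-zero cells. Cytokine-high cells were higher in every litter, though the classes overlapped across litters. The call was lost without DEX-1 (0.51, edgeR adjusted p 0.0834), PBS-1 (0.54, 0.112) or PBS-2 (0.62, 0.121). The means were 642 ± 193 and 423 ± 112 CPM (SD, n = 4), a log2 fold change of 0.59 ± 0.09 (SE) with an edgeR adjusted p of 0.0370. After thinning to 3000 UMIs, which left out 4 cytokine-high and 14 cytokine-zero cells, 67.1% of cytokine-high and 55.5% of cytokine-zero cells held an Nr4a2 UMI, against 9.24% of B cells; unthinned, 272 of the 320 cytokine-high cells did. The call held without cells of other types, at 0.61 ± 0.08 and an edgeR adjusted p of 0.000177.

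Lmo4, a LIM-only adaptor of transcription factor complexes (ENSMUSG00000028266, chromosome 3, 144188530 to 144205220), was the called gene of the ILC2 transcription factor list. It was at 999, 1201, 963 and 915 CPM in cytokine-high and 1632, 1695, 1312 and 1261 CPM in cytokine-zero cells. All 4 cytokine-high values lay below all 4 cytokine-zero values. The log2 fold change was -0.53 ± 0.06 with an edgeR adjusted p of 0.00253, and -0.49 ± 0.07 (0.000221) without cells of other types. It was lower by level rather than by detection, since 87.3% and 87.5% of thinned cells held an Lmo4 UMI.

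A pair of receptors for cytokines of type 1 immunity, Il18r1 and Ifngr1, fell. Il18r1, the binding chain of the IL-18 receptor and a gene of lung ILC progenitors (ENSMUSG00000026070, chromosome 1, 40465552 to 40500854), was at 23.8, 14.8, 25.8 and 14.9 CPM in cytokine-high and 63.1, 67.3, 57.4 and 58.7 CPM in cytokine-zero cells. The classes did not overlap, and the log2 fold change was -1.68 ± 0.23 (edgeR adjusted p 0.0149), on 47 and 147 UMIs; the call was lost without DEX-2 (0.166) or PBS-2 (0.121), in thinned cells (0.0692) and by DESeq2 (0.0682). After thinning, 3.8% of cytokine-high and 11.6% of cytokine-zero cells held an Il18r1 UMI; B cells held one in 5.04%, so the cytokine-high share is no higher than in those barcodes. Ifngr1, the ligand-binding chain of the interferon-gamma receptor (ENSMUSG00000020009, chromosome 10, 19591949 to 19610229), was at 369, 448, 211 and 276 CPM in cytokine-high and 528, 589, 359 and 439 CPM in cytokine-zero cells. It was lower in cytokine-high cells of every litter, by 0.58 ± 0.08 on the log2 scale (edgeR adjusted p 0.0213), while the litters spread so far that the classes overlapped, and its call was lost without DEX-2 (0.0832) or PBS-2 (0.151) and in thinned cells (0.0663).

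Rasgrp2, an exchange factor that turns calcium and diacylglycerol into Rap1 activity (ENSMUSG00000032946, chromosome 19, 6399340 to 6415216), was at 83.4, 74.0, 56.0 and 60.6 CPM in cytokine-high and 137, 184, 150 and 150 CPM in cytokine-zero cells. The classes did not overlap, and the log2 fold change was -1.18 ± 0.14 with an edgeR adjusted p of 0.00607; it was not called without DEX-2 (0.136) or PBS-2 (0.0686) or in thinned cells (0.0763). Ctla2a, an inhibitor of cathepsin L-like proteases (ENSMUSG00000044258, chromosome 13, 60934155 to 60936625), was at 1895, 2119, 2347 and 1523 CPM in cytokine-high and 3136, 2649, 2827 and 1960 CPM in cytokine-zero cells. It was lower in cytokine-high cells of every litter, by 0.42 ± 0.07 on the log2 scale (edgeR adjusted p 0.0458; 0.236 without DEX-2 and 0.121 without PBS-2), and it has a close copy, Ctla2b, with which reads may be shared. Ifngr1, Rasgrp2 and Ctla2a were also called without cells of other types, at -0.51, -1.14 and -0.38. Under the stricter gate with no mast cell UMIs, Ctla2a was at -0.30 and not called (edgeR adjusted p 0.202).

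Of the other 5 called rises, 4 rested on few cells. Lyz2, the lysozyme of macrophages and of alveolar type 2 cells (ENSMUSG00000069516, chromosome 10, 117277331 to 117282321), was at 636, 146, 19.4 and 200 CPM in cytokine-high and 23.1, 1.82, 1.85 and 10.8 CPM in cytokine-zero cells. DEX-1 led and PBS-1 was lowest. A UMI was found in 30 of the 320, 3 cells held 92.1% of the 606 UMIs and 1 held 51.7%. The log2 fold change was 4.68 ± 0.22 (edgeR adjusted p 2.06e-06), and Lyz1 is a near-identical copy. Eln (elastin), Mfap4 and Mgp, all genes of matrix-making cells, were 3.94 ± 0.41, 2.82 ± 0.29 and 2.55 ± 0.42 higher, with 74.5%, 73.1% and 65.0% of their UMIs in 3 cells. Lyz2 is itself a gene of the minima of other types, so leaving out cells that passed them took out its highest cells by design. Without these cells, Lyz2, Eln and Mgp no longer passed the filter on low counts and Mfap4 was at 0.07 ± 0.36 (edgeR adjusted p 0.985). Malat1, a long nuclear RNA, was 0.29 ± 0.05 higher, at 2106 ± 255 against 1716 ± 160 CPM (edgeR adjusted p 0.0386), and 0.13 ± 0.06 (0.5) without those cells.

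**Figure D2:**
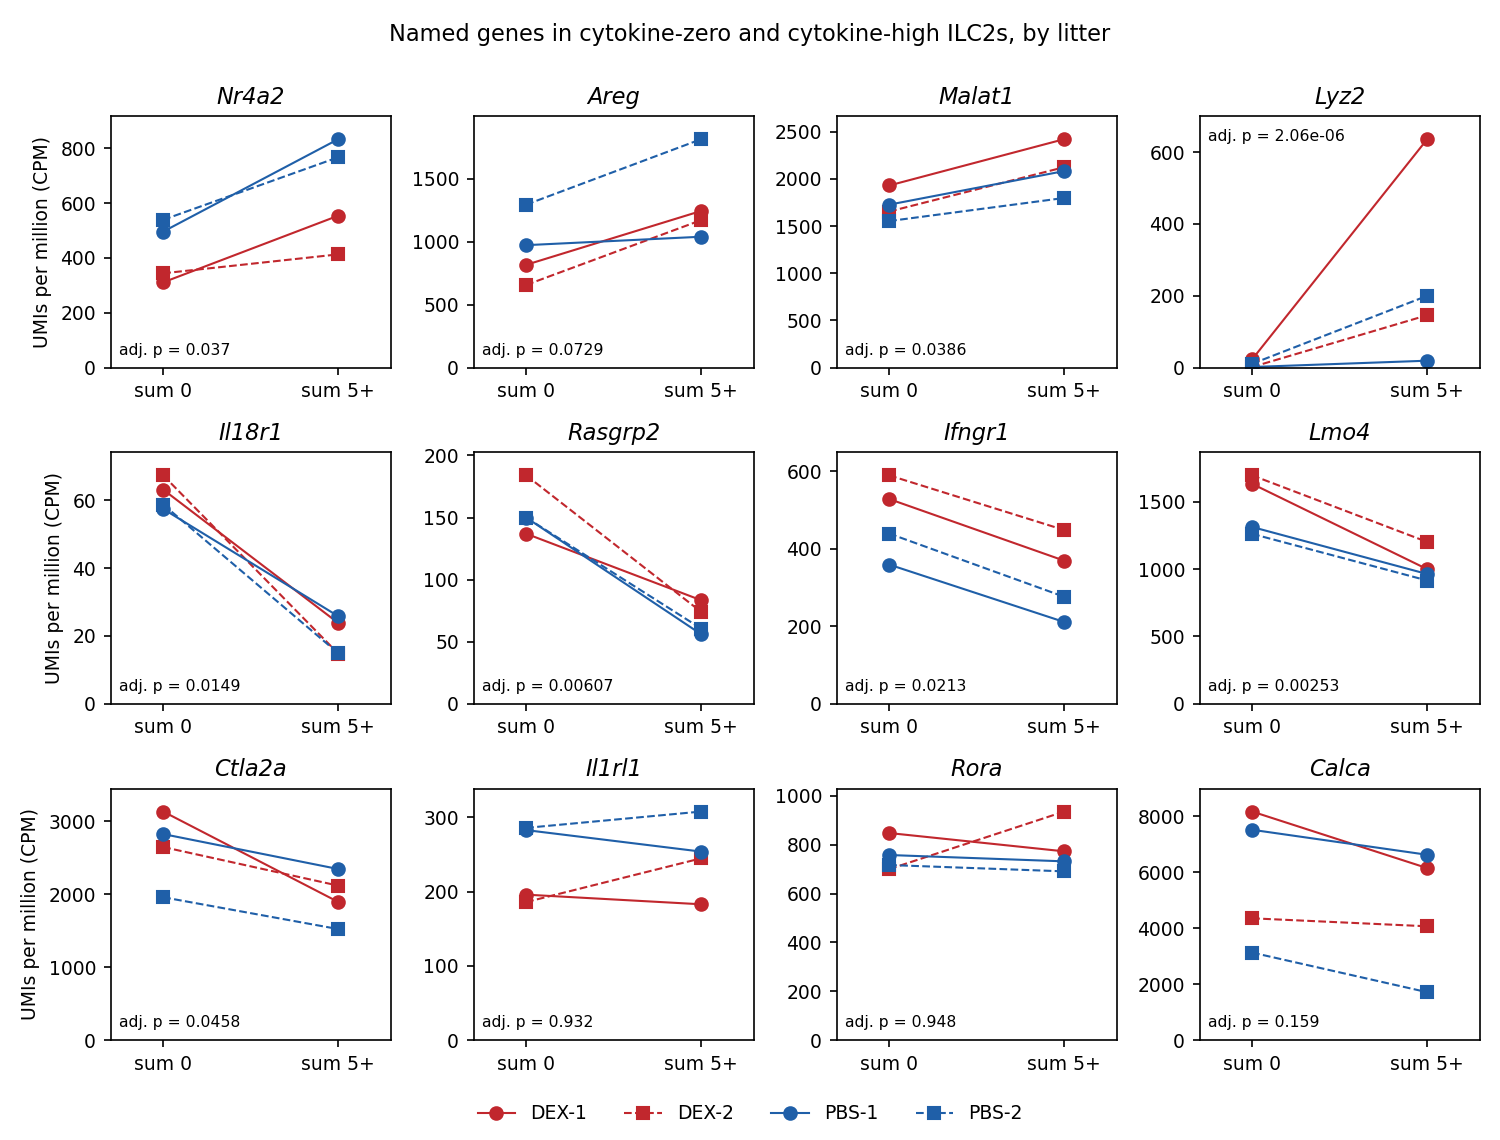
CPM (UMIs scaled to the library total) of 12 genes in cytokine-zero (sum 0) and cytokine-high (sum of at least 5) ILC2s, with a line per litter (DEX red, PBS blue; first litters circles, second litters squares) and the edgeR adjusted p. Lmo4, Il18r1 and Rasgrp2 fall in every litter with no overlap of the classes, Nr4a2 rises in every litter, Lyz2 is led by DEX-1 at 636 CPM, and Rora and Il1rl1 cross.

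Il1rl1, Rora, Nr3c1 and Nfkbia, 4 of the 7 fixed genes, differed by less than their error. Il1rl1, which encodes ST2, was 248 ± 51.4 CPM in cytokine-high and 238 ± 54.5 CPM in cytokine-zero cells, a log2 fold change of 0.07 ± 0.11 (edgeR adjusted p 0.932). Rora, a transcription factor needed for the lineage, was 783 ± 107 and 756 ± 66.1 CPM (0.05 ± 0.09, edgeR adjusted p 0.948), and was higher in cytokine-high cells of DEX-2 only. Nr3c1, the glucocorticoid receptor, was 342 ± 51.9 and 355 ± 35.4 CPM (-0.07 ± 0.10, edgeR adjusted p 0.926). Nfkbia, the NF-kB inhibitor that NF-kB itself induces, was 2515 ± 268 and 2478 ± 264 CPM (0.02 ± 0.05, edgeR adjusted p 0.974). Klrg1 was too low to test, with 31 UMIs in cytokine-high and 26 in cytokine-zero cells.

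Calca, which encodes the neuropeptide CGRP, was abundant and variable. It was at 6150, 4069, 6627 and 1712 CPM in cytokine-high and 8173, 4355, 7521 and 3129 CPM in cytokine-zero cells. It was lower in cytokine-high cells of all 4 litters, but its log2 fold change of -0.39 ± 0.10 did not pass (edgeR adjusted p 0.159). Areg, the growth factor amphiregulin (ENSMUSG00000029378, chromosome 5, 91139599 to 91148432), was at 1245, 1172, 1040 and 1815 CPM in cytokine-high and 817, 657, 973 and 1295 CPM in cytokine-zero cells. It was higher in all 4 litters by 0.51 ± 0.09, which missed the threshold over all cells (edgeR adjusted p 0.0729) and passed without cells of other types (0.60 ± 0.09, edgeR adjusted p 0.000351). It was 0.21 (edgeR adjusted p 0.724) when the ILC2 gate allowed no Tyrobp UMI and none of 5 mast cell genes. That gate kept 220 cytokine-high cells, and why the size of the Areg difference changed was not tested.

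Areg aside, the genes called only without cells of other types were named after their values were seen. Among the lower ones, Tcf7, a factor of ILC progenitors, was 13.2 ± 2.36 against 34.7 ± 8.55 CPM (-1.37 ± 0.29, edgeR adjusted p 0.0240), and Cd7 15.9 ± 9.35 against 37.8 ± 18.0 CPM (-1.30 ± 0.30). Hey1, a Notch target, was 219 ± 63.0 against 338 ± 92.7 CPM (-0.63 ± 0.11, edgeR adjusted p 0.00252), and Il7r, the IL-7 receptor that all ILCs use, 751 ± 56.8 against 920 ± 71.0 CPM (-0.30 ± 0.07). All 4 were lower in cytokine-high cells of every litter. Bcl2 (-0.56 ± 0.11) and Bcl2l11 (-0.79 ± 0.18), which hold back and promote cell death, were lower too.

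Lgals3, which encodes galectin-3, was the lower gene with the smallest adjusted p in that setting. It was at 55.3, 79.1, 90.5 and 7.28 CPM in cytokine-high and 244, 293, 166 and 107 CPM in cytokine-zero cells. The classes did not overlap, and the log2 fold change was -1.92 ± 0.22 (edgeR adjusted p 8.04e-05); over all cells it was -1.86 ± 0.36 (0.0792). S1pr1, the receptor for exit into lymph and blood (-1.46 ± 0.27), Nkg7, a cytotoxic granule protein (-1.39 ± 0.23), and Plaur, the urokinase receptor (-0.56 ± 0.10), were also lower in every litter. An Lgals3 UMI was found, over all cells, in 35 cytokine-high and 77 cytokine-zero cells. In these classes 3 cells held 43.6% and 37.4% of the Lgals3 UMIs. B cells held one in 31.1%, against 10.9% of cytokine-high and 21.0% of cytokine-zero cells. The part of RNA from other cells in the Lgals3 difference was not tested.

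Among the higher ones, Stab2, a scavenger receptor for hyaluronan, ran from 183 CPM in DEX-1 to 448 CPM in PBS-2 in cytokine-high and from 127 to 315 CPM, in the same litters, in cytokine-zero cells. It was higher in every litter, by 0.59 ± 0.10 (edgeR adjusted p 0.00252). H2-K1, a class I antigen presentation gene, was 1162 ± 85.6 against 888 ± 133 CPM (0.40 ± 0.07), and H2-Q7 31.8 ± 14.3 against 9.19 ± 3.83 CPM (1.78 ± 0.37); reads of these near-identical class I genes may be split among copies. Cd3g, the CD3 gamma chain, was 556 ± 12.4 against 430 ± 34.6 CPM (0.37 ± 0.08), and Nfkbid, an inhibitor-like partner of NF-kB, 425 ± 37.7 against 318 ± 45.9 CPM (0.42 ± 0.10, edgeR adjusted p 0.0369). Itgav, the integrin alpha-v chain (0.46 ± 0.10), Rgcc (0.41 ± 0.07) and Rln3, which encodes relaxin-3 (1.07 ± 0.23), were higher in all 4 litters. Over all cells, 3 cells held 40.3% of the Rln3 UMIs of cytokine-high cells. Rln3 was at 25.3 ± 9.80 CPM at a sum of 0 and 31.8 ± 11.8 at 1 to 4 (SD, n = 4). It was at 20.2 ± 14.6 CPM at 5 to 9 and 75.1 ± 48.1 at 10 or more.

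**Figure D3:**
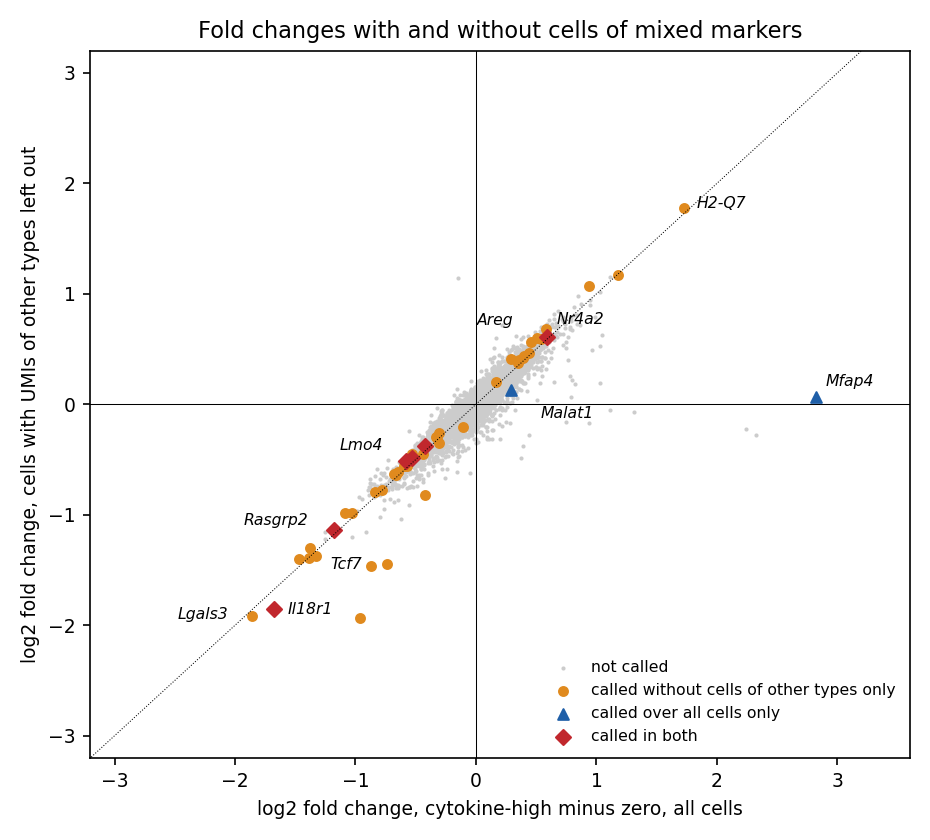
Log2 fold change of cytokine-high minus cytokine-zero cells over all cells (x) and without cells holding UMIs of other types (y), a point per gene tested in both, with called genes coloured. Most genes lie on the diagonal, Nr4a2, Lmo4, Il18r1 and Rasgrp2 among them, whereas Mfap4 falls from 2.82 to 0.07.

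The steps of the sum show where the classes part. Rasgrp2 was at 151 ± 20.1 CPM in cells with a sum of 0, 115 ± 9.10 at 1 to 4, 67.3 ± 15.7 at 5 to 9 and 63.2 ± 10.2 at 10 or more (mean ± SD, n = 4 litters, scaled to each step's own total). Its widest step lay between 1 to 4 and 5 to 9. Il18r1 was at 60.0 ± 4.35, 29.7 ± 6.89, 26.5 ± 13.9 and 9.01 ± 6.94 CPM in the same order, and Lmo4 at 1436 ± 211, 1197 ± 249, 959 ± 89.3 and 947 ± 247 CPM. Nr4a2 had means of 412 ± 111, 483 ± 131, 527 ± 209 and 700 ± 252 CPM, neighbours that overlap within their SD. Areg differed only at the last step, at 912 ± 268, 1020 ± 158, 994 ± 93.8 and 1490 ± 573 CPM, with an SD that covers the step below. Rora kept to 691 to 777 CPM over the 4 steps.

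**Figure D4:**
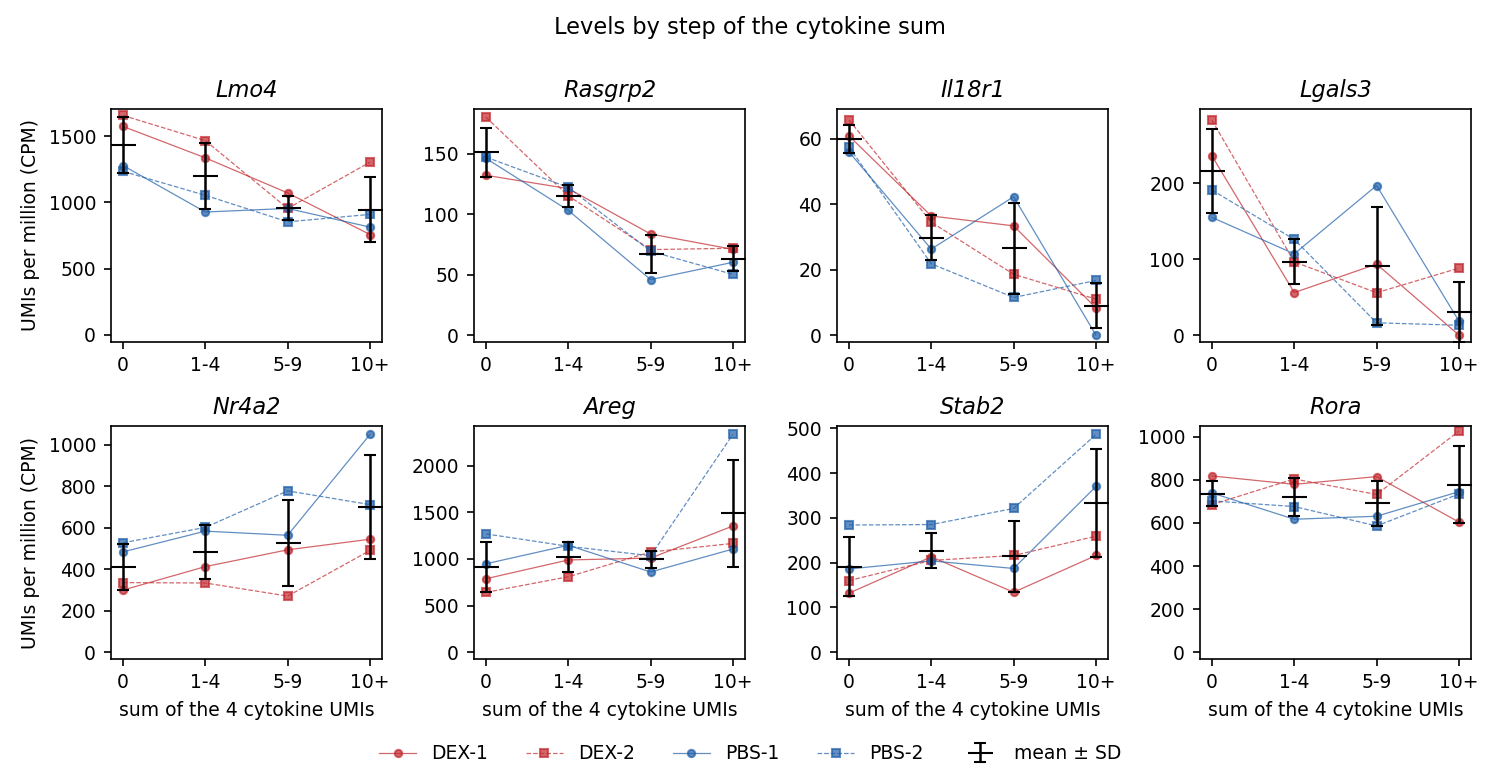
CPM (UMIs scaled to the library total) of 8 genes in ILC2s grouped by the sum of the 4 cytokine UMIs (0, 1 to 4, 5 to 9, 10 or more), with a line per litter and the mean ± SD in black. Rasgrp2 and Il18r1 step down from 151 and 60.0 to 63.2 and 9.01 CPM, Nr4a2 and Stab2 are highest in the last step, and Rora is level; Lgals3 and Stab2 were chosen after their values were seen.

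Gene lists for the pathways around the cytokines were then read against all genes, of which 51.0% had a log2 fold change above 0. The NF-kB feedback list holds NF-kB subunits and other NF-kB target genes beside inhibitors of NF-kB. It leaned up without a call over all cells: 14 of 15 tested genes were above 0, with a median of 0.22. Of these genes 0 were called by edgeR or DESeq2 and 5 had an unadjusted p under 0.05. Nfkbid (0.39 ± 0.12), Nfkbie (0.54 ± 0.22), Nfkb1 (0.18 ± 0.06) and Relb (0.34 ± 0.14) were higher in all 4 litters, as were 8.55% of all genes, where edgeR gave an adjusted p of 0.313, 0.450, 0.316 and 0.490. Tnfaip3, which encodes the brake A20, was the exception, at -0.23 ± 0.06 and lower in all 4 litters (edgeR adjusted p 0.181).

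Of 12 tested genes in the calcium, NFAT and Nr4a/Egr list, 1 was called, Nr4a2, and the median was 0.06. Its relatives went different ways: Nr4a3 was at 0.37 ± 0.12 (edgeR adjusted p 0.318), Nr4a1 at -0.04 ± 0.10 (0.969) and Egr1 at -0.31 ± 0.12 (0.443). The 20 AP-1 and immediate early genes had a median of 0.00, with 10 above and 10 below 0, 0 called by edgeR or DESeq2 and 5 at an unadjusted p under 0.05, Fos at 0.03 ± 0.05 and Junb at 0.01 ± 0.05. Batf, an AP-1 factor of lymphocytes, had the value of the list farthest from 0, -0.85 ± 0.20 (edgeR adjusted p 0.143). The 14 genes of dissociation and heat shock had a median of -0.03 with 0 called by edgeR or DESeq2 and 2 at an unadjusted p under 0.05.

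Among other secreted factors 9 of 13 were above 0, with a median of 0.24, 0 called by edgeR and 1, Areg, by DESeq2. Il2 was at 0.55 ± 0.29, Lif at 0.31 ± 0.21 and Cxcl2 at 0.33 ± 0.10, with edgeR adjusted p of 0.645, 0.744 and 0.272. Of 23 alarmin, cytokine and neural receptors, 2 were called, Il18r1 and Ifngr1, both lower, and the median was -0.07. Il17rb, the receptor for the alarmin IL-25, was at -0.37 ± 0.11 (edgeR adjusted p 0.306). Checkpoints and signal brakes leaned down: 12 of 15 were below 0, the median was -0.18, 0 were called by edgeR or DESeq2 and 6 had an unadjusted p under 0.05. In it Pdcd1 (PD-1) was at -0.84 ± 0.20 and the diacylglycerol kinase Dgka at -0.82 ± 0.20, both lower in all 4 litters, as were 8.52% of all genes, and both with an edgeR adjusted p of 0.15. The 8 genes of the TNF receptor family and costimulators had a median of -0.27 with 0 called by either tool and 3 at an unadjusted p under 0.05.

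Of 20 ILC2 transcription factors, 1 was called, Lmo4, and the median was -0.02. Bhlhe40, a stress and activation factor of type 2 lymphocytes, was at 0.58 ± 0.15, higher in all 4 litters (edgeR adjusted p 0.169). JAK-STAT5 targets (14 genes, median 0.02), growth and ribosome biogenesis (18, -0.03), glycolysis (14, -0.09), migration and residency (15, -0.06) and the glucocorticoid receptor and its targets (13, -0.08) had 0 calls each by edgeR and DESeq2, with 2, 1, 3, 4 and 3 genes at an unadjusted p under 0.05. Of the neighbours of the cytokine genes on chromosome 11, 12 were tested, the median was 0.02, 0 were called by either tool and 3 had an unadjusted p under 0.05. Rad50, which lies between Il13 and Il5, was at 0.15 ± 0.18 and Irf1 at 0.72 ± 0.23 (edgeR adjusted p 0.893 and 0.318). The 14 tested genes of an activation list that the study used to score ILC2s from another model, fetuses of asthmatic mothers, had a median of 0.02 with 0 called by either tool, 4 at an unadjusted p under 0.05 and 4 higher in all 4 litters. These counts are over all cells. Without cells of other types, edgeR also called Bcl2 and Bcl2l11 (both lower) among the JAK-STAT5 targets, S1pr1 (lower) in migration and residency, Tcf7 (lower) among the transcription factors, Il7r (lower) among the receptors, Areg (higher) among the secreted factors, and Nfkbid (higher) in NF-kB feedback and in the activation list.

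**Figure D5:**
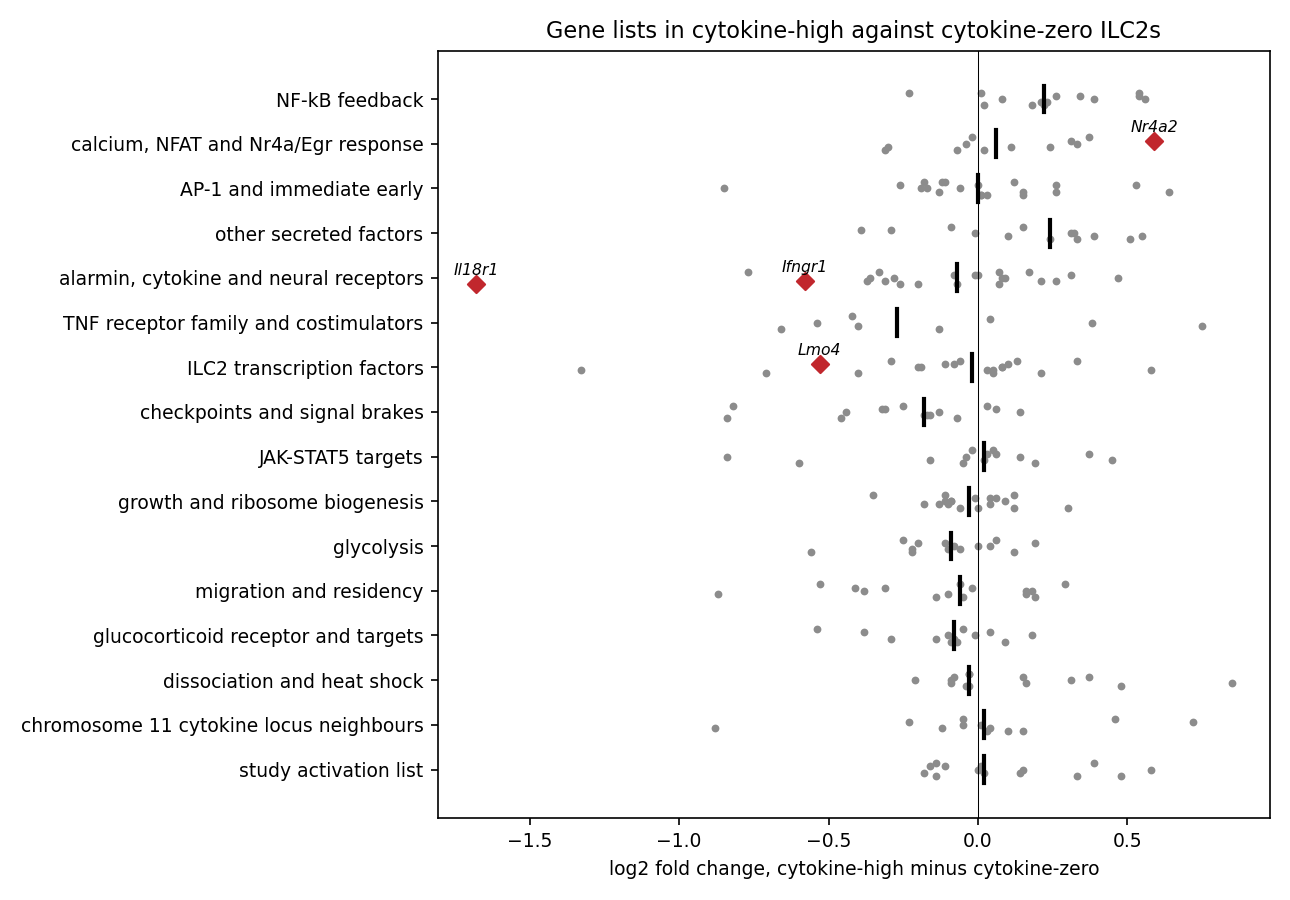
Log2 fold change of cytokine-high minus cytokine-zero cells for each tested gene of 16 lists; grey points did not pass, red diamonds were called by edgeR and black bars are list medians. NF-kB feedback lies mostly to the right of 0 (14 of 15) and checkpoints and signal brakes mostly to the left (12 of 15), with 0 calls in either over all cells.

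Cells led by different cytokines were compared to ask whether they are alike in other genes. Csf2-led cells held more Areg and Itgav than Il13-led cells, while Nr4a2 was near equal. Over the 4 litters, 10 of 3262 genes were called (0.307%), 1 higher (0.0307%) and 9 lower (0.276%) in Il13-led cells. Areg was at 744, 1012, 846 and 1916 CPM in Il13-led and 2615, 1876, 1729 and 2480 CPM in Csf2-led cells. Csf2-led cells were higher in every litter, by 0.98 ± 0.16 on the log2 scale (edgeR adjusted p 0.0159), and still without cells of other types, where Areg was the only call (-0.89, edgeR adjusted p 0.0178). By DESeq2 0 genes were called (53 at an unadjusted p under 0.05), without DEX-1 0 by edgeR (200) and without PBS-1 49. Areg differed by -0.45 (edgeR adjusted p 0.743) when a leading cytokine had to make up 75% of the sum. Set against cytokine-zero cells, Areg was 1.1 higher in Csf2-led cells (edgeR adjusted p 0.00281), 0.11 in Il13-led cells (0.897) and -1.02 in Il4-led cells (0.316).

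Itgav, named after its value was seen, was 233 ± 63.9 CPM in Il13-led and 422 ± 55.7 CPM in Csf2-led cells (-0.86 ± 0.14, edgeR adjusted p 0.0159), and -0.85 without cells of other types, where it did not pass (0.0939). Hdc, histidine decarboxylase, the enzyme that makes histamine in mast cells and basophils, was the call higher in Il13-led cells. It was at 514, 406, 322 and 68.7 CPM in Il13-led and 21.8, 91.3, 46.4 and 42.2 CPM in Csf2-led cells, higher in every litter though PBS-2 differed least. The log2 difference was 2.44 ± 0.36 (edgeR adjusted p 0.0159), and Hdc fell under the low-count filter once cells with UMIs of other types were left out. Mast cells and basophils also carry Il13, at 182 CPM, and the part of mast cell RNA in this result was not tested.

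The other calls were lower in Il13-led cells. Sftpc, the surfactant protein of alveolar type 2 cells, was at 357, 290, 420 and 264 CPM in Il13-led cells against 23070, 28279, 285 and 4927 CPM in Csf2-led cells. PBS-1 did not share the difference, and 1 cell held 34.1% of the Sftpc UMIs of all cytokine-high cells. The log2 difference of -4.51 ± 0.77 became 0.07 (edgeR adjusted p 0.998) without cells of other types. Sftpc is among the genes by which those cells were left out, so this fall follows from the setting and no conclusion is drawn from it. App, Col4a1, Emp2, Fabp5 and Selenbp1 differed by -2.92, -2.59, -2.23, -1.91 and -1.71, and of these only Fabp5 was still tested without such cells, at -0.17. Malat1, named after its value was seen, differed by -0.52 ± 0.08, and by -0.40 without cells of other types, where it was not called (edgeR adjusted p 0.463). Nr4a2 was 743 ± 142 and 744 ± 234 CPM and Lmo4 1080 ± 113 and 993 ± 197 CPM in Il13-led and Csf2-led cells, differences of 0.01 ± 0.10 and 0.13 ± 0.12 with edgeR adjusted p of 0.999 and 0.880.

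DEX was compared with PBS within cytokine-high cells, the question of the study put to these cells. Ramp3, Tnfrsf9, Crem, Odc1 and Jdp2 were higher and Rnf128, Hes1, Enah and Slc7a8 lower in DEX litters. By edgeR, 21 of 6548 genes were called (0.321%), 11 higher (0.168%) and 10 lower (0.153%). In cytokine-zero cells of the same litters, 23 of 6731 were called (0.342%). DESeq2 called 11, and the counts moved with the litters: 0 genes were called by edgeR without DEX-1 or without DEX-2 (309 and 201 at an unadjusted p under 0.05), 87 without PBS-1 and 124 without PBS-2. Without cells of other types 22 were called, 13 of them shared with the 21.

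Ramp3, a partner of the receptor for CGRP and adrenomedullin (ENSMUSG00000041046, chromosome 11, 6658521 to 6677475), was at 138 and 241 CPM in DEX against 34 and 44.4 CPM in PBS litters. The groups did not overlap, and the log2 fold change was 2.23 ± 0.28 (edgeR adjusted p 0.00498), beside 1.5 ± 0.18 (0.00126) in cytokine-zero cells and 2.43 (0.00102) without cells of other types. Between the classes Ramp3 was at -0.77 ± 0.18 (edgeR adjusted p 0.128). Cxcl10, a chemokine induced by interferon, was at 138 and 335 CPM in DEX against 53.2 and 79.3 in PBS litters (1.80 ± 0.34, edgeR adjusted p 0.0473); 1 cell held 35.4% of its UMIs and the call was lost without cells of other types (1.88, edgeR adjusted p 0.328).

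The other calls of largest size came from fewer cells. Cbr2, Tagln, Myl9 and Acta2, genes of airway epithelium and smooth muscle, differed by -4.48, -4.29, -3.86 and -3.71 on the log2 scale (DEX minus PBS), with UMIs in 10, 8, 6 and 11 cells and 52.3 to 79.5% of them in 1 cell. None of the 4 was tested without cells of other types, where they fell under the low-count filter. Dlk1, an imprinted fetal gene, was at 285 and 757 CPM in DEX against 10.6 and 114 in PBS litters (2.87 ± 0.54, edgeR adjusted p 0.0473), with 62.3% of its UMIs in 1 cell. Rasl11a differed by -3.12 ± 0.50 (edgeR adjusted p 0.0180) and by -2.92 (0.0529) without cells of other types.

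The remaining calls, named after their values were seen, were spread over more cells. Rnf128, an E3 ubiquitin ligase linked to T cell anergy, was at 215 and 246 CPM in DEX against 540 and 557 CPM in PBS litters. The groups were far apart, with a log2 fold change of -1.25 ± 0.15 (edgeR adjusted p 0.00391), beside -0.93 ± 0.13 (0.00416) in cytokine-zero cells. Tnfrsf9, the costimulator 4-1BB, was at 209 and 279 against 89.3 and 63.4 CPM (1.72 ± 0.22, edgeR adjusted p 0.00521), beside 1.33 ± 0.19 in cytokine-zero cells. Hes1, a Notch target, was at 193 and 147 against 376 and 331 CPM (-1.06 ± 0.18, edgeR adjusted p 0.0236), beside -0.97 ± 0.16. Without cells of other types Rnf128, Tnfrsf9 and Hes1 were still called, at -1.25, 1.67 and -1.11. Cpa3, a mast cell protease, was at 88.6 and 75.9 against 27.6 and 28.5 CPM (1.53 ± 0.28, edgeR adjusted p 0.0426) and at -0.78 (0.812) without cells of other types. Cpa3 is among the mast cell genes by which those cells were left out, so the loss of its call follows from the setting.

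Odc1, the first enzyme of polyamine synthesis, was at 344 and 365 CPM in DEX against 134 and 180 CPM in PBS litters (1.15 ± 0.18, edgeR adjusted p 0.0154). In cytokine-zero cells its difference was 0.00 ± 0.16 (0.999). Jdp2, an AP-1 repressor, was at 279 and 335 against 149 and 142 CPM (1.09 ± 0.17, edgeR adjusted p 0.0180), and at -0.04 ± 0.19 in cytokine-zero cells. Crem, a factor of the cAMP response, was at 285 and 305 against 149 and 122 CPM (1.15 ± 0.18, edgeR adjusted p 0.0154), and at 0.53 ± 0.19 in cytokine-zero cells. The difference between classes was not called for any of the 3, with interaction terms of 1.18, 1.13 and 0.59 and an edgeR adjusted p of 1.00 each. Without cells of other types Odc1, Jdp2 and Crem were still called between treatments, at 1.24, 1.17 and 1.2.

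Nr4a2 was lower in DEX in both classes, at 549 and 414 CPM against 823 and 762 CPM in PBS litters among cytokine-high cells (-0.72 ± 0.15). This missed the threshold (edgeR adjusted p 0.0729), while it passed in cytokine-zero cells (-0.66 ± 0.13, edgeR adjusted p 0.0384) and among cytokine-high cells without those of other types (-0.72, 0.0274). Its interaction term was -0.06 (edgeR adjusted p 1.00). Lmo4 (0.24 ± 0.13), Areg (-0.24 ± 0.20), Nr3c1 (0.32 ± 0.16) and Il1rl1 (-0.39 ± 0.19) did not pass, with edgeR adjusted p of 0.824, 0.916, 0.770 and 0.75.

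The test of whether the class difference depends on treatment called 1 of 7358 genes (0.0136%), Il17a, the cytokine of ILC3s and type 17 cells, while 207 had an unadjusted p under 0.05. In cytokine-high cells Il17a gave 75, 0, 4 and 12 UMIs by litter, and in cytokine-zero cells 1, 0, 106 and 43 UMIs. DEX-2 had none in either class. These UMIs sat in 10 cytokine-high and 6 cytokine-zero cells, and 1 cell held 39.6% and 59.3% of them. The interaction term of 9.54 ± 0.92 (edgeR adjusted p 0.0281) therefore sets DEX-1 alone against the PBS litters, on these few cells, and a dependence on treatment cannot be read from it.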

How the data were processed

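Single-cell RNA and hashtag UMIs of 4 pooled litters were analysed. The deposited matrix holds unnormalized UMI counts, made by the authors with Cell Ranger 7 and mm10 according to the submitters' processing notes; its other settings were not found in the sources used here. The members and the gene lists were chosen with earlier results of these data known.

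Barcodes were filtered and gated as stated in the report, with the top hashtag at 10 UMIs or more and at least 3 times the next. Same-litter doublets were not removed. Counts were summed per litter and class, leaving out the 17 genes of the rule, and tested two-sided with edgeR 4.0.16 (TMM, filterByExpr, quasi-likelihood; litter as a block between classes, none for DEX against PBS) under R 4.3.3, with Benjamini-Hochberg adjustment and calls under 0.05. SE is the log2 fold change over the square root of F. CPM values use TMM-scaled totals without those genes, except for cytokines and markers, which use plain totals. Totals of the steps also count genes under the low-count filter. The fit was tested on simulated data. DESeq2 1.42.0, other scalings, filters, thresholds, thinning to 3000 UMIs and depth-matched cells were alternatives.

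Named were the 15 largest rises and 10 largest falls among calls with the same direction in 4 litters and at least 20 CPM, up to 4 calls per list, 7 fixed genes (Areg, Il1rl1, Nr3c1, Rora, Klrg1, Calca and Nfkbia), and for DEX and for leading cytokines the 8 largest changes among calls of at least 20 CPM. Cells with UMIs of other types passed any of these minima: 20 of Sftpc, Sftpb and Epcam; 5 of Csf1r, Adgre1, Lyz2, Cd68 and Mrc1; 5 of Col1a1, Col1a2, Col3a1 and Pdgfra; 5 of Pecam1, Cdh5, Kdr and Cldn5; 20 of Hba-a1, Hbb-bs and Alas2; 5 of Cd79a, Cd79b and Ms4a1; 5 of Cpa3, Cma1, Mcpt4, Tpsab1 and Mcpt8. Intervals and floors cover counting error only. The number of mothers differs between parts of the study's text, and the hashtags were taken as litters. Gene positions came from GENCODE M21 by Ensembl identifier, which held 99.6% of the genes.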

Additional observations from a re-analysis of the deposited data

Results flagged for a closer look

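Among the 11 called genes and the 7 fixed genes without Klrg1, which was not tested, 3 had a single litter apart from the others. The log2 ratio of cytokine-high to cytokine-zero cells was read by Dixon's test for 4 values. Chance alone meets this test in about 1 of 20 groups. Eln was at 5.63 in PBS-2 and between 2.63 and 3.07 in the other litters, and 1 cell held 52.1% of its UMIs in cytokine-high cells. Rasgrp2 was at -0.71 in DEX-1 and between -1.41 and -1.29 in the others. Rora was at 0.42 in DEX-2 and between -0.13 and -0.05 in the others. Il17a was called for the interaction of class and treatment (9.54, edgeR adjusted p 0.0281), on UMIs in 10 cytokine-high and 6 cytokine-zero cells. DEX-2 held 0 Il17a UMIs in both classes, so the DEX side is DEX-1 alone and a dependence on treatment cannot be read from it. Among 31 gated barcodes with no single litter, used in no comparison, 25.8% were cytokine-high (95% Wilson interval 13.7 to 43.2%, median 11483 UMIs).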

How the results depend on the processing

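The number of genes called between cytokine-high and cytokine-zero cells (11) moved most with settings that change cells or genes. It was 27 against depth-matched zero cells, 30 at a hashtag ratio of 10, 44 for a sum of at least 10, 48 for a sum per 10000 UMIs, 45 without cells holding UMIs of other types, 7 with no mast cell UMIs and 239 with no filter on low counts. With no replicate block (the litter left out of the model) it was 3, where Lmo4 and Nr4a2 lost their calls, and it was 19, 2 and 1 for cells led by Csf2, Il13 and Il4. Leaving out 1 litter gave 4 to 26. DEX against PBS gave 21 calls, 11 by DESeq2, 53 in thinned cells, 119 with no filter and 0 to 124 without 1 litter. With the replicate number as a block it gave 133. Deviations of same-numbered litters correlated at 0.10 over 5929 genes in cytokine-high and -0.03 over 5927 in cytokine-zero cells. With 2 pairs this cannot tell whether same-numbered litters share a factor. The interaction gave 43 with no filter and 2 without cells of other types. Il13-led against Csf2-led cells gave 0 by DESeq2, 156 with no filter, 2 with no replicate block, 1 without cells of other types and 0 to 49 without 1 litter. The difference in share ran from -9.50 to 2.17 points without 1 litter.

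Direction turned for genes near 0 and in small sets of cells. In Il13-led cells Malat1 was at -0.04, Il1rl1 at -0.07, Rora at -0.04 and Nfkbia at -0.01, and in Il4-led cells Areg at -1.02 and Rora at -0.01. Nfkbia was at -0.00 for a sum of at least 3 and -0.01 in thinned cells. Nr3c1 was at 0.04 for a sum per 10000 UMIs, 0.07 in thinned cells and 0.01 without cells of other types. In that last setting, which leaves out cells by their Sftpc UMIs among others, Sftpc between Il13-led and Csf2-led cells was at 0.07. Without 1 litter, Il1rl1 ran from -0.04 to 0.14, Nr3c1 from -0.18 to 0.00, Rora from -0.08 to 0.10 and Nfkbia from -0.05 to 0.06. The cause was not tested in any of these. With 2 litters per treatment and 3 UMIs worth 3.19 to 6.46 CPM, small differences in low genes could be missed at this depth.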
